A study of Mus musculus with 7 samples.

Results

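The clustered protocadherin genes lie side by side on mouse chromosome 18 in the alpha, beta and gamma clusters. The members described here were the 57 protein-coding GENCODE genes, of 21851 in all, whose symbols begin with Pcdha (14 genes), Pcdhb (22 genes) or Pcdhg (21 genes). The rule uses symbol and position and no accessibility value, although the gene family was picked with earlier results of these data known. The symbol Pcdha11 is carried by 2 genes of the annotation, ENSMUSG00000007440 and ENSMUSG00000102206. Together the clusters spanned 912 kb of GRCm38, from chr18:36930184-37841873. A union region is a stretch of called accessible chromatin after the rows of both peak lists had been merged. Of 119215 union regions, 17 were nearest to the transcription start site (TSS) of a member, with 3 in the alpha cluster, 3 in the beta cluster and 11 in the gamma cluster.

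Chromatin accessibility was profiled by ATAC-seq, in which a transposase cuts open DNA and tags it for sequencing. The cells came from mammary tumors of mice on a C57BL/6 background with the MMTV-PyMT transgene, in which a viral promoter active in mammary epithelium drives the polyoma middle T oncoprotein. All mice also carried Dll1-mCherry, a bacterial artificial chromosome in which the regulatory sequence of the Notch ligand gene Dll1 drives a red fluorescent protein. After CD45, CD31 and Ter119 positive cells had been sorted out, mCherry+ cells (Dll1+, 3 samples) and mCherry- cells (Dll1-, 4 samples) of 4 tumors were compared, and 3 tumors gave both populations. The age of the animals was not given in the sources used here. A cell is Dll1+ here only by the reporter, and both groups are whole sorted populations that may hold several cell types.

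Each protocadherin of these clusters is a cell adhesion protein of the cadherin family that binds the same isoform on a neighboring cell. In the alpha and gamma clusters every gene has its own promoter and its own large variable exon, which is spliced to constant exons shared by the whole cluster. Beta genes consist of a variable exon and use no constant exons. In neurons, where the family is best known, each cell activates a few of these promoters, and the zinc finger protein CTCF and the cohesin ring bring distant enhancers to the chosen promoter. Most promoters hold a conserved sequence element that binds CTCF, and alpha genes hold a further CTCF site in the variable exon. The C-type genes Pcdhac1, Pcdhac2, Pcdhgc3, Pcdhgc4 and Pcdhgc5 lie at the 3′ ends of their clusters and are used more constantly between cells. Hypermethylation of these clusters is known from several cancers, breast cancer included. DNA methylation was not measured here.

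The values came from 2 pooled peak lists, so no value per sample and no replicate spread could be given, and no difference between Dll1+ and Dll1- cells was tested. The Dll1+ list was shallower, with a genome-wide background of 3.74 reads against 7.20 in the Dll1- list. All 5 luminal and general epithelial markers had an open start site in both lists, whereas 0 of 3 basal markers (Krt5, Krt14, Trp63) and 0 of 4 immune markers had one. Start sites were also open in both lists for Kdr among 3 endothelial markers and Pdgfra among 2 fibroblast markers. Of 4 neuronal markers, Tubb3 was open in both lists, Syt1 in the Dll1+ list, and Rbfox3 and Snap25 in neither. The part of other cell types in the values below was not tested. In bulk cells, a weak region in many cells and a strong region in a few cells cannot be told apart.

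Most start sites of the clustered protocadherin genes were closed, or too weakly open to be called, in both populations. A gene counted as covered in a list when any of its protein-coding start sites lay inside a called region of that list. A gene with several annotated start sites thus had more chances to be covered. The part of this in the comparison with all genes was not tested. In Dll1+ cells 7 of 57 genes were covered (12.3%, Wilson 95% interval 6.08 to 23.2%), against 57.6% of all protein-coding genes. In Dll1- cells 7 of 57 were also covered (12.3%, 6.08 to 23.2%), against 59.7% of all genes. Intervals here and below cover counting error only, and neighboring genes are not independent. The lists shared 6 covered genes, 10.5% of the members, and 56.8% of all genes were covered in both. The shared genes were Pcdhac2, Pcdhb1, Pcdhgb1, Pcdhgb6, Pcdhgc3 and Pcdhgc4. Pcdha11 (ENSMUSG00000007440) was covered only in Dll1- cells, and Pcdhb17 only in Dll1+ cells. A total of 49 genes were covered in neither list. When only rows above the median fold of their list were kept, 4 start sites stayed covered in Dll1+ cells and 5 in Dll1- cells.

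**Figure D1:**
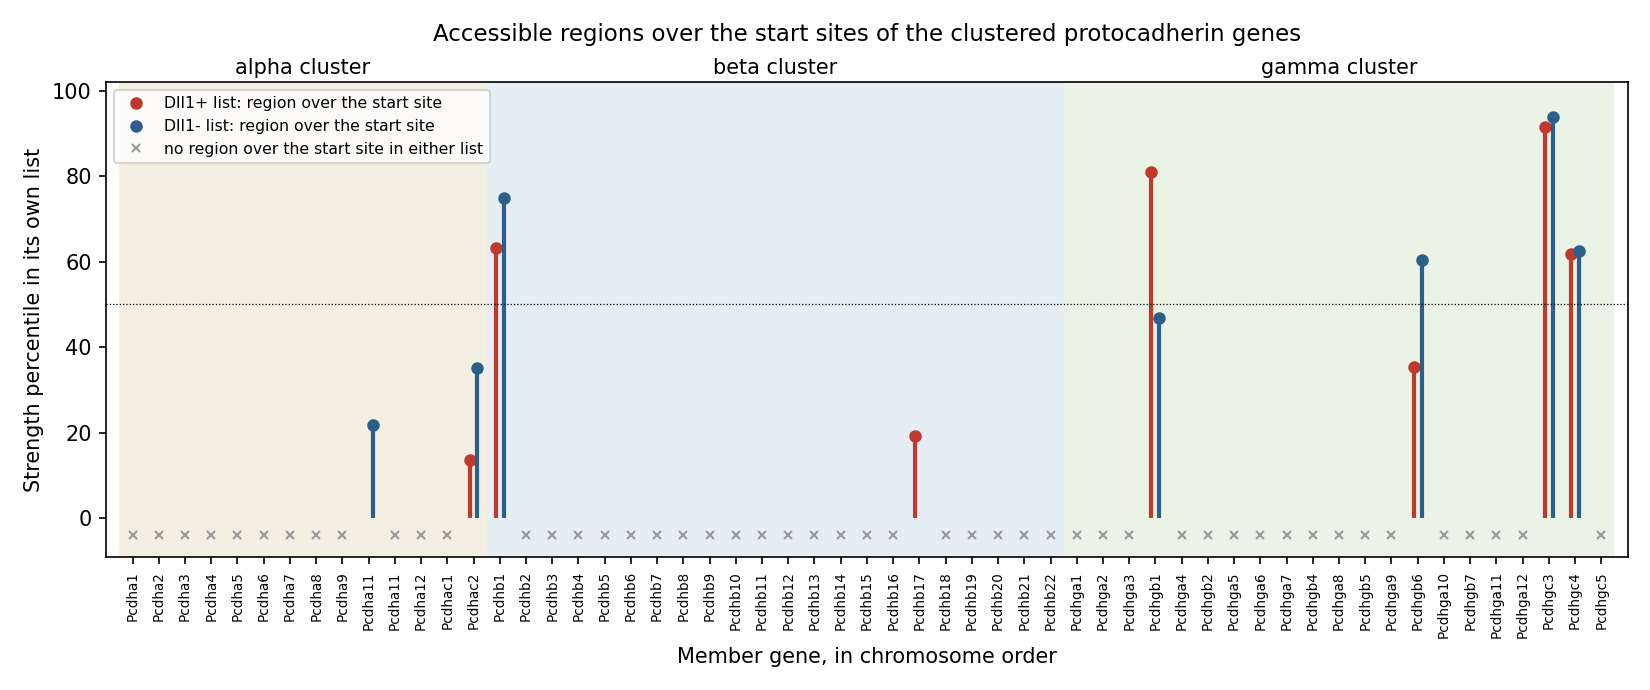
The strength percentile of the region over each member's start site, on the vertical axis, is plotted for the 57 genes in chromosome order. Red points stand for the Dll1+ list and blue points for the Dll1- list, grey crosses mark the 49 genes with no region over the start site in either list, and the dotted line marks 50. Covered start sites number 2 in the alpha, 2 in the beta and 4 in the gamma cluster, and Pcdhgc3 stands highest in both lists (the left of the 2 columns named Pcdha11 is ENSMUSG00000007440).

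By cluster, the counts were small. In the alpha cluster 1 of 14 start sites was covered in Dll1+ cells (7.14%) and 2 in Dll1- cells (14.3%). In the beta cluster 2 of 22 were covered in Dll1+ cells (9.09%) and 1 in Dll1- cells (4.55%). The gamma cluster had 4 of 21 covered in each list (19.0%, 7.67 to 40.0%). The intervals of the 3 clusters overlapped in each list. C-type genes were covered in 3 of 5 cases in each list (60.0%, 23.1 to 88.2%), which is near the share of all genes. Of the other 52 members, 4 were covered in each list (7.69%, 3.03 to 18.2%).

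Pcdhac2, Pcdhb1, Pcdhgc4 and Pcdhgc5 are known as the genes whose promoters lack the conserved CTCF element. This grouping was made after the values had been seen, and it is described without a test. Of these 4 genes, 3 were covered in each list, and Pcdhgc5 was not. Of the other 53 members, 4 were covered in each list (7.55%, 2.97 to 17.9%). The grouping rests on what is known of these 4 genes, and the element itself was not located in the sequence of any member.

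**Figure D2:**
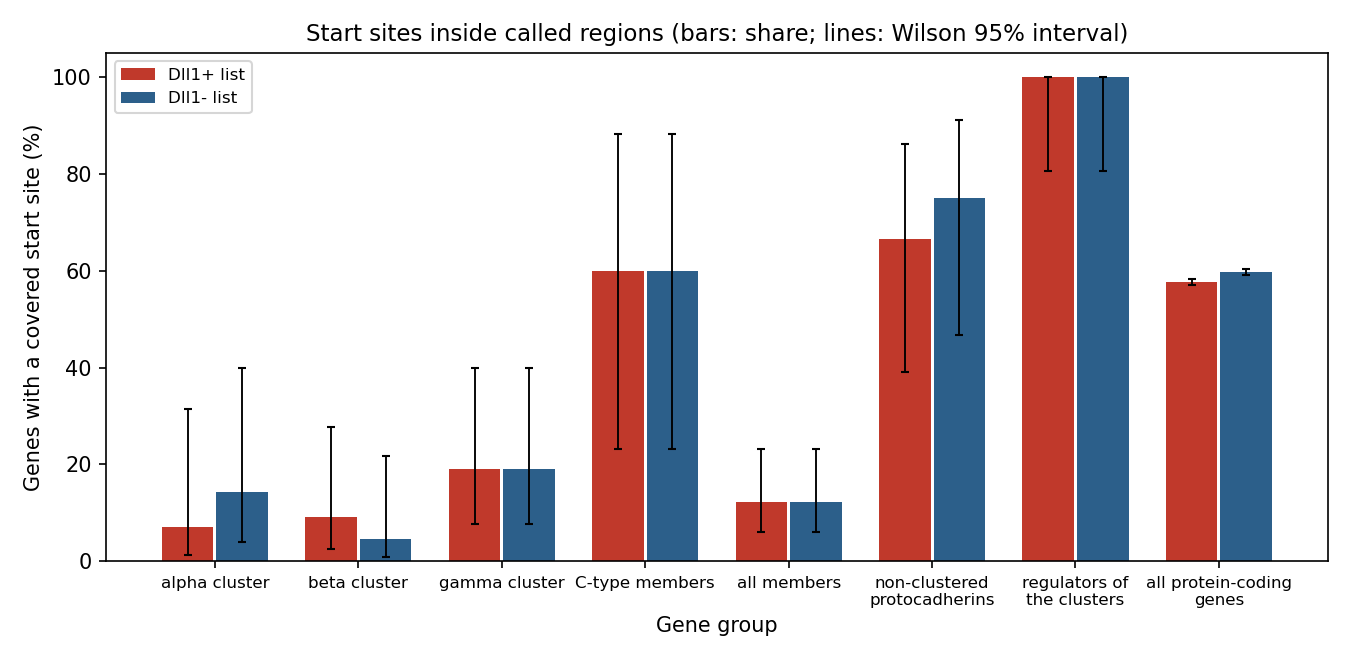
The percent of genes with a covered start site is shown on the vertical axis for 8 gene groups, with red bars for the Dll1+ list, blue bars for the Dll1- list and black lines for Wilson 95% intervals. All 57 members stand at 12.3% in both lists, below the 57.6% and 59.7% of all protein-coding genes, and the 5 C-type members stand at 60.0%.

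The clusters held few accessible regions. Within the 912 kb span there were 16 union regions, those over start sites included, or 17.5 per Mb, against 43.7 per Mb over the genome. Of these, 1 was nearest to no member, and it was the promoter of Taf7, which encodes a subunit of the general transcription factor TFIID and lies between the beta and gamma clusters. Of the 57 members, 48 had no nearest region at all (84.2%, 72.6 to 91.5%), and among all protein-coding genes this share was 20.5%. Members had 0.298 regions per gene, and all genes had 5.46. Both per-gene measures depend on gene spacing too, since a region counts only for its nearest start site and the members lie close together. The count per Mb does not depend on that assignment. The part of gene spacing in the per-gene values was not tested. The called rows covered 9.34 kb of the span in Dll1+ cells and 8.86 kb in Dll1- cells.

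The closed stretches were long. The 15 start sites from Pcdhb2 to Pcdhb16 lay in a gap of 219 kb without a region in either list. Of 119194 gaps between neighboring union regions, 1.09% were at least that long, and the median gap was 6.58 kb. This share counts gaps and not bases. Long gaps take up more of the genome than their number shows, so it is not the share of positions in such gaps. A gap of 202 kb held the 9 start sites from Pcdha1 to Pcdha9, and 138 kb held those of the other Pcdha11 gene, Pcdha12 and Pcdhac1. The 5 start sites from Pcdhb18 to Pcdhb22 lay in a gap of 159 kb. In the gamma cluster the gaps were shorter, with 9 start sites from Pcdhga4 to Pcdhga9 in 61.3 kb and 4 from Pcdhga10 to Pcdhga12 in 58.4 kb. The 49 uncovered start sites lay a median of 26.4 kb from the nearest region (range 2.97 to 89.6 kb). Pcdhgc5 was the closest and Pcdhb8 the farthest.

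Near-identical copies can lose reads when they are aligned, so the promoter windows were searched for repeated sequence. A promoter window ran from 1000 bp upstream to 100 bp downstream of the start site. In 7 of 57 windows any word of 50 bases was found again within the clusters, and such words made up at most 7.51% of a window, at Pcdhgb4. The aligner's treatment of repeated reads was not given in the sources used here.

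The regions are described next by cluster, each with its place and its recovered reads. Each also has its strength percentile, its fold enrichment over the local background as the peak caller gave it, or both. The percentile ranks a region by fold among all regions of the same list, so 50 is the middle of that list. Regions were numbered 1 to 17 along the chromosome.

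In the alpha cluster all 3 regions were weak. The start site of Pcdha11 (ENSMUSG00000007440) was open in Dll1- cells (region 1, chr18:37005063-37005277), with 30 reads and a fold of 3.78, at percentile 21.9. Pcdhac2, a C-type isoform needed for the even spacing of serotonergic axons, was open at its 5′ UTR in both lists (region 2, chr18:37143327-37144402). There the Dll1+ list held 17 reads at percentile 13.6 and the Dll1- list 37 reads at percentile 35.2. Region 3 lay in the first intron of Pcdhac2, with its midpoint 5893 bp downstream of the start site (chr18:37149240-37149551), and was called only in Dll1+ cells, with 24 reads at percentile 32.9. The C-type gene Pcdhac1 had no region. No called region overlapped an alpha constant exon.

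In the beta cluster the regions nearest to Pcdhb1, the first gene of the cluster, stood above the middle of both lists. Its start site and coding exon were open (region 5, chr18:37264511-37265708), with 50 reads at percentile 63.1 in Dll1+ cells and 79 reads at percentile 75.0 in Dll1- cells. Region 4 (chr18:37218099-37218550) lay 46613 bp upstream of Pcdhb1 and 30.4 kb past the last alpha constant exon, in sequence that the annotation gives to introns of readthrough transcripts. It held 45 reads at percentile 68.4 in Dll1+ cells and 101 reads at percentile 84.8 in Dll1- cells. An alpha cluster enhancer known as HS5-1 lies downstream of the alpha constant exons. Whether region 4 is that element was not tested. The start site of Pcdhb17 was open only in Dll1+ cells (region 6, chr18:37484710-37485045), with 19 reads at percentile 19.2.

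In the gamma cluster the open chromatin gathered at the 3′ end. The C-type genes Pcdhgc3, Pcdhgc4 and Pcdhgc5 were nearest to 9 of the 17 member regions, and these lay within 51.7 kb. The strongest member region in both lists was the promoter of Pcdhgc3 (region 10, chr18:37805920-37806887), whose protein binds Axin1 and dampens Wnt signaling. It held 272 reads and a fold of 16.2 at percentile 91.6 in Dll1+ cells, and 428 reads and a fold of 16.6 at percentile 93.9 in Dll1- cells. The Taf7 promoter, upstream of the gamma cluster, stood at percentiles 97.8 and 99.6. A second Pcdhgc3 region in the coding exon (region 11, chr18:37808734-37809084) held 99 and 183 reads, at percentiles 39.0 and 59.8. Region 9, 5413 bp upstream of Pcdhgc3 (chr18:37800827-37801166), was called only in Dll1- cells. It held 68 reads at percentile 68.2 and was the strongest of the 5 member regions found in a single list.

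The start site of Pcdhgc4, the isoform that supports the survival of neurons, was open in both lists (region 12, chr18:37814277-37815601). It held 78 reads at percentile 61.7 in Dll1+ cells and 107 reads at percentile 62.4 in Dll1- cells. Pcdhgc5 was the member with the most regions, 5, although its start site was not covered. Region 13 in its intron (chr18:37822484-37822851) was open in both lists with 25 and 28 reads, at percentiles 35.4 and 12.7. Region 14 (chr18:37824931-37825183) overlapped the first gamma constant exon and was called only in Dll1- cells, with 32 reads at percentile 24.6. Region 15 (chr18:37835350-37837148) lay between the other gamma constant exons and held 48 and 57 reads, at percentiles 47.2 and 44.8.

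The last 2 regions lay past the 3′ end of the gamma cluster, inside introns of Diaph1, which encodes an actin-nucleating formin. Region 16 (chr18:37849467-37849969), 7.59 kb past the end, held 129 and 220 reads in the Dll1+ and Dll1- lists, at percentiles 76.3 and 78.3. Region 17 (chr18:37852082-37852514), 10.2 kb past the end, held 138 and 306 reads, at percentiles 78.6 and 89.7. After the Pcdhgc3 promoter, regions 17 and 4 were the strongest of the members in the Dll1- list. Enhancers of the beta and gamma clusters are known in and around Diaph1, but the assignment of these regions to members rests only on the nearest start site.

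The variable A-type and B-type gamma genes were mostly closed. Among them only Pcdhgb1 and Pcdhgb6 had a region. Pcdhgb1 was open over its start site (region 7, chr18:37680091-37680612), with 58 reads and a fold of 12.5 in Dll1+ cells against 45 reads and a fold of 5.61 in Dll1- cells. Pcdhgb6 was open over its promoter (region 8, chr18:37741874-37742417), with 25 reads and a fold of 5.49 in Dll1+ cells against 58 reads and a fold of 7.20 in Dll1- cells. Pcdhgb1 thus ranked higher in the Dll1+ list and Pcdhgb6 in the Dll1- list, a difference between genes that was not tested.

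**Figure D3:**
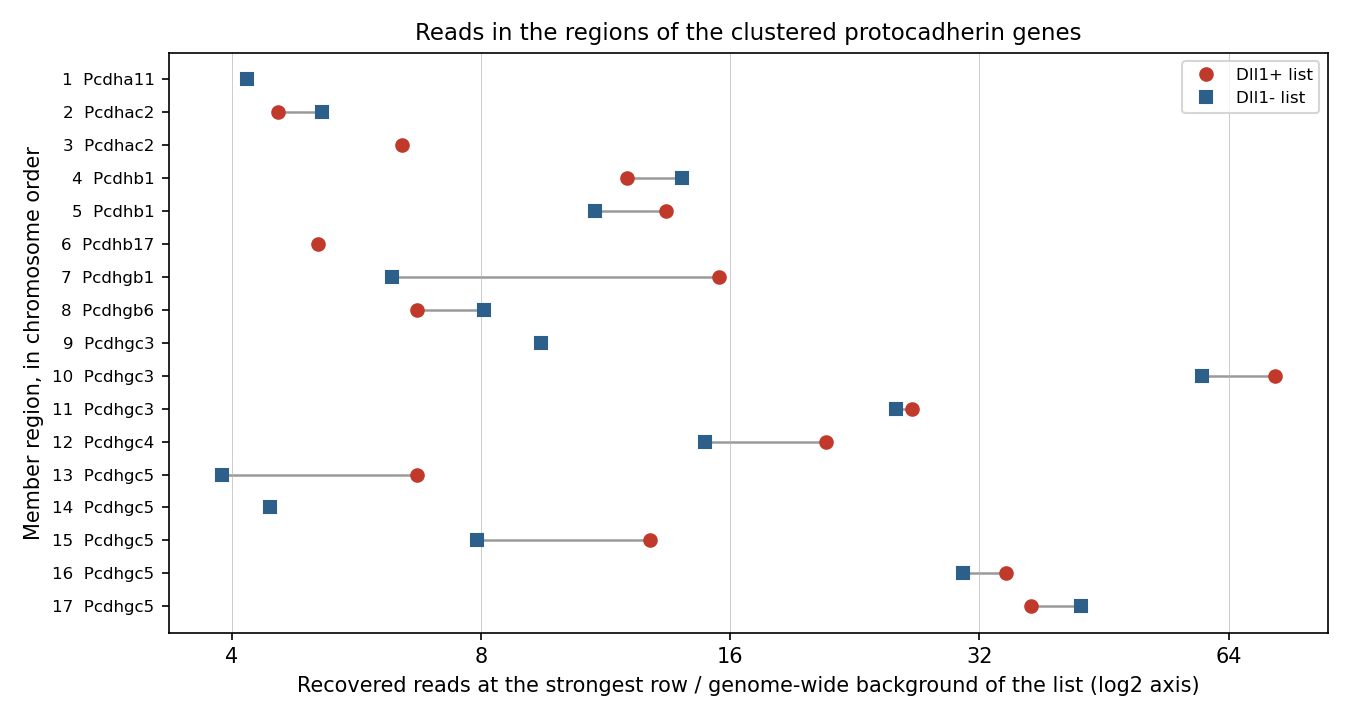
Recovered reads at the strongest row of each of the 17 member regions, divided by the genome-wide background of the list, are plotted on a log2 axis, with regions in chromosome order from top to bottom. Red circles stand for the Dll1+ list and blue squares for the Dll1- list, and a grey line joins the values of a region called in both. Region 10 at the Pcdhgc3 promoter is highest in both lists at 72.8 and 59.5 times the background, and the widest gap between the lists is that of Pcdhgb1 at 15.5 and 6.25. This scale favors the Dll1+ list: the median log2 ratio of the 12 shared member regions is 0.23 on it. Set against the median ratio of all shared regions, it is -0.01, and that of region 10 is 0.05.

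By position, 5 of the 17 regions lay at promoters (29.4%, 13.3 to 53.1%), whereas 9.17% of all union regions did. A further 2 lay in 5′ UTRs, 3 in coding exons and 7 in introns, and 0 were intergenic. Of all union regions, 1.28% lay in 5′ UTRs, 2.77% in coding exons and 49.4% in introns, and 34.0% were intergenic. Region 4 was classed as intronic only through readthrough genes that span the clusters in the annotation. With a promoter of 2500 bp on each side of the start site the promoter share of the members was 52.9%, and the share of all regions is not given. Regions over a start site numbered 8 and the others 9. Their median percentiles were 61.7 (n = 7) and 47.2 (n = 7) in Dll1+ cells, and 60.4 (n = 7) and 64.0 (n = 8) in Dll1- cells.

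List membership of the member regions stood near that of all regions. Regions present in both lists numbered 12 of 17 (70.6%, 46.9 to 86.7%), against 66.4% of all union regions. Those called only in Dll1+ cells numbered 2 (11.8%, 3.29 to 34.3%), against 9.01%, and those called only in Dll1- cells numbered 3 (17.6%, 6.19 to 41.0%), against 24.6%. By cluster, 1 of 3 alpha regions, 2 of 3 beta regions and 9 of 11 gamma regions were shared. Both regions that were called only in Dll1+ cells lay in the alpha and beta clusters, and the gamma cluster had 2 of the 3 regions called only in Dll1- cells.

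The 5 regions called in a single list were set against the depth of the other list. The Dll1- list was 1.93 times deeper by its background. Divided by that ratio, the 3 regions called only in Dll1- cells would hold 15.6 (region 1), 35.3 (region 9) and 16.6 reads (region 14) at the depth of the Dll1+ list. How rows were selected for the optimal lists is not given in the sources used here. The 2 regions called only in Dll1+ cells would hold 46.2 (region 3) and 36.6 reads (region 6) at the depth of the Dll1- list. Among these 5 regions, only region 9 stood above the middle of its list. With only rows above the median fold kept, 0 member regions were called in Dll1+ cells alone and 2 in Dll1- cells alone. The latter were region 9 and the otherwise shared region 8 of Pcdhgb6, whose Dll1+ fold of 5.49 lay under the median of 5.59. Absence from a list means only that no region was called.

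The strength of the member regions was compared with that of all regions. The median percentile was 54.5 in Dll1+ cells (n = 14 regions, 13.6 to 91.6) and 60.4 in Dll1- cells (n = 15, 12.7 to 93.9). Ranked among all rows of a list instead of its regions, the medians were 66.1 and 68.8. For the 12 shared regions the difference in percentile, Dll1+ minus Dll1-, had a median of -6.66 points (-25.0 to 34.1). Over all 79153 shared regions the median was -3.66, and the central 95% ran from -40.7 to 28.6. A region of the members thus stood outside that central range in 1 case, Pcdhgb1 at 34.1 points. By cluster the median difference was -21.7 in alpha (n = 1), -14.1 in beta (n = 2) and -1.95 in gamma (n = 9).

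Differences over 20 percentile points were counted. Ranked higher in Dll1+ cells by that much were 2 of 12 shared member regions, against 5.64% of all shared regions. These were Pcdhgb1 (34.1 points) and region 13 of Pcdhgc5 (22.7 points). Ranked higher in Dll1- cells were 3 of 12, against 15.4% of all. They were Pcdhgb6 (-25.0 points), Pcdhac2 (-21.7 points) and region 11 of Pcdhgc3 (-20.8 points). With 12 regions, a single region moves these shares by 8.33 percentage points. The Pcdhgc3 promoter differed by -2.28 points and the Pcdhgc4 start site by -0.684 points.

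**Figure D4:**
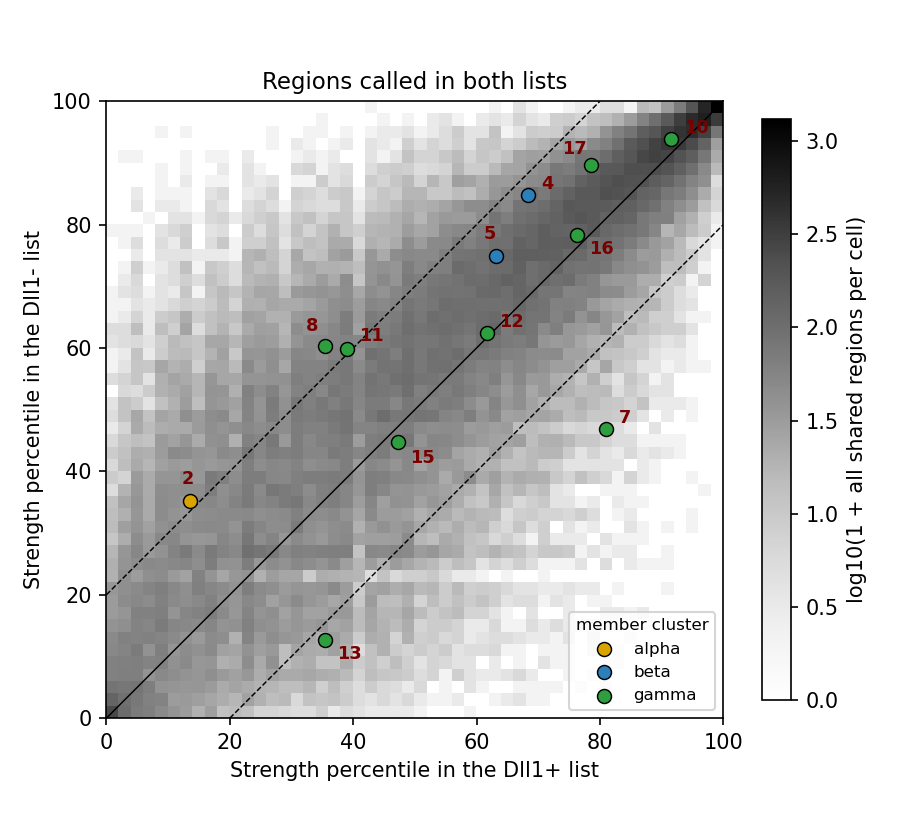
Each of the 12 member regions called in both lists is plotted by its strength percentile in the Dll1+ list (horizontal) and the Dll1- list (vertical), colored by cluster and numbered as in the text, over a grey density of all 79153 shared regions. The solid line marks equal percentiles and the dashed lines a difference of 20 points. Regions 7 and 13 lie beyond the lower dashed line, and regions 2, 8 and 11 lie beyond the upper line.

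Reads were also compared, on a scale that takes no account of the local background. The log2 ratio of reads, Dll1+ over Dll1-, was centered on its median over all shared regions. For the 12 shared member regions it had a median of -0.01 (-0.51 to 1.07). A ratio above 2-fold toward Dll1+ cells was seen in 1 of 12, against 3.22% of all shared regions, and toward Dll1- cells in 0 of 12, against 3.71%. The region was that of Pcdhgb1, with a log2 ratio of 1.07 and an exact 95% counting interval of 0.48 to 1.67. For Pcdhgb6 the ratio was -0.51 (-1.25 to 0.19), and for Pcdhac2 it was -0.42 (-1.34 to 0.45). At the Pcdhgc3 promoter, where the reads were deepest, it was 0.05 (-0.17 to 0.27). Region 17 inside Diaph1 had a ratio of -0.44 (-0.74 to -0.15). These intervals hold no variation between tumors.

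The promoters of the members were poor in GC. Their median GC content was 37.8% (30.5 to 48.5%), against 49.3% for all protein-coding genes. The median was 34.7% in the alpha, 37.7% in the beta and 38.9% in the gamma cluster, and 48.0% in the 5 C-type genes. The ratio of observed to expected CpG dinucleotides, low where CpGs have been lost, had a median of 0.357 (0.0977 to 0.772) against 0.414 for all genes. Pcdhgc3, with the strongest region, had both the highest GC content (48.5%) and the highest CpG ratio (0.772) of all members. Pcdhgc5, whose start site was closed, had a GC content of 48.0% and a CpG ratio of 0.158.

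The median CpG ratio was 0.38 in the covered members (n = 8) and 0.354 in the uncovered (n = 49), and the median GC content was 42.3% and 37.6%. Over all protein-coding genes, the covered genes had a median CpG ratio of 0.566 and a GC content of 51.6%, and the uncovered 0.177 and 44.7%. Of the 4052 genes with a CpG ratio in the middle range of the members (0.278 to 0.453), 60.1% were covered in Dll1+ cells and 63.6% in Dll1- cells. Of the 29 members in that range, 5 were covered in each list (17.2%, 7.6 to 34.5%). The median GC content of those 4052 genes was 48.7%, and that of the 29 members was 37.8%, so the sets match in CpG ratio but not in GC content.

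**Figure D5:**
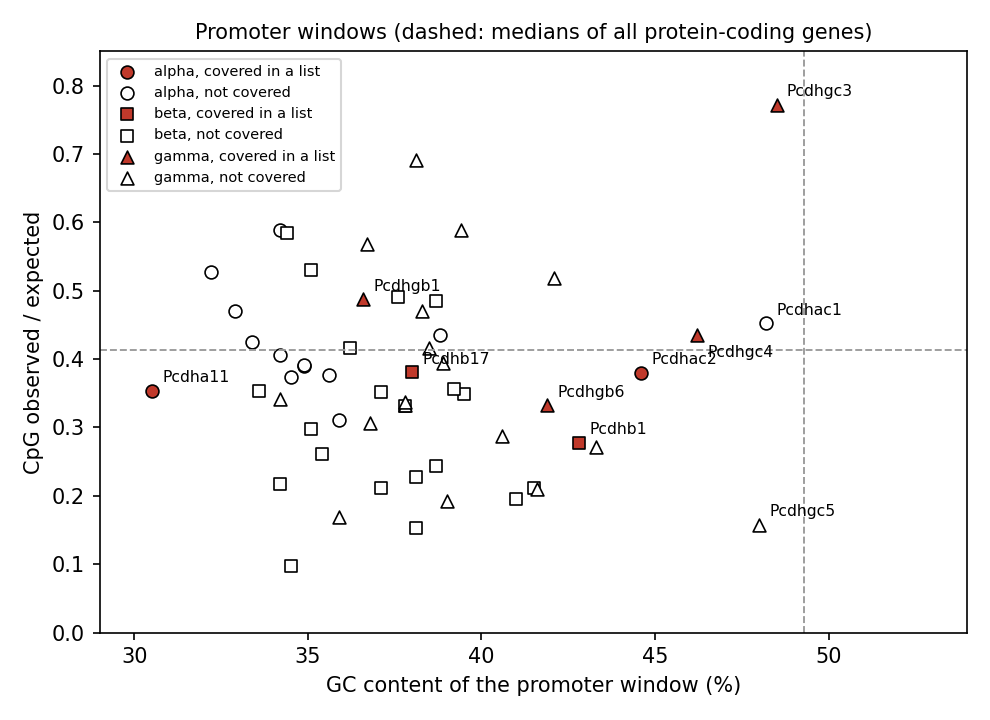
GC content (horizontal, percent) and the ratio of observed to expected CpG (vertical) of the promoter window are plotted for the 57 members, with circles for alpha, squares for beta and triangles for gamma genes. Red symbols are genes with a covered start site in at least 1 list, white symbols are the others, and dashed lines mark the medians of all protein-coding genes (49.3% and 0.414). Pcdhgc3 has the highest values on both axes, and the other covered genes lie among the uncovered ones in CpG ratio.

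A core consensus of the CTCF motif was looked for on either strand. It was absent 100 bp around the strongest summit in all 17 member regions (0 of 17), against 3.87% of all union regions. With at most 1 mismatch, 2 of 17 held it (11.8%), against 12.1% of all. These were regions 4 and 17, which lie outside the member genes. In the promoter windows 0 of 57 members held it, also with 1 mismatch, whereas 1.17% and 13.0% of all protein-coding genes did. A missing match says only that these letters were not in the window.

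Downstream of the start site the picture differed between the clusters. This window was added after the promoter windows had been seen. In the 1000 bp after the start site the exact consensus was present in 6 of 57 members (10.5%), against 0.554% of all protein-coding genes. All 6 were alpha genes, namely Pcdha1, Pcdha4, Pcdha6, Pcdha7, Pcdha8 and Pcdha12, and the match lay on the strand of the gene. With at most 1 mismatch, 10 of 14 alpha genes held it (71.4%), 1 of 22 beta genes and 2 of 21 gamma genes, against 9.81% of all genes. Of these 13 members, 11 had no covered start site in either list, a share like that of all members (49 of 57).

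Genes outside the clusters were described for comparison. Of 12 non-clustered protocadherins, which are not part of the alpha, beta or gamma clusters, 8 were covered in Dll1+ cells and 9 in Dll1- cells. Pcdh10 stood highest among them, at percentile 96.3 in the Dll1+ list, and Pcdh1 lowest, at 5.53. Their 131 nearest regions were shared in 60.3% of cases. Of 16 genes known to regulate the clusters, including Ctcf and the cohesin genes Rad21, Smc1a and Smc3, all 16 were covered in both lists, and 70.8% of their 65 regions were shared. The maintenance of methylation and silencing in the clusters involves Smchd1, Setdb1 and Dnmt3b, and their start sites stood at percentiles 84.4, 88.0 and 57.2 in Dll1+ cells and 88.9, 89.6 and 79.2 in Dll1- cells. Beside the clusters, Zmat2, Taf7 and Diaph1 were covered in both lists, and Slc25a2, the mitochondrial ornithine carrier gene between the clusters, had no region.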

How the data were processed

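ATAC-seq was measured in 3 Dll1+ and 4 Dll1- samples. Replicates of a group were processed together by the authors with the ENCODE ATAC-seq pipeline, and 1 optimal peak list per group was deposited, so replicates cannot be compared. The aligner, peak caller and thresholds are not given in the sources used here. The build, GRCm38 (mm10), is listed in the submitters' processing notes. The deposited columns used were the fold enrichment (a ratio of reads at the summit to the local background) and the −log10 p-value, both from the authors' peak caller. The deposited score and the −log10 q-value served for no result.

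Rows of both lists (132872 and 148923) were merged where they overlapped or touched and assigned to the nearest protein-coding TSS of GENCODE M21 by midpoint. Promoter sequences came from the GRCm38.p6 genome of RefSeq. Reads and local background were solved from fold and −log10 p-value under a Poisson model, fold being reads plus 1 over background plus 1 (tolerance 0.001 on −log10 p-value; 0 and 1 rows unsolved). The script was tested on simulated rows. Python 3.11.15, numpy 2.4.6, pandas 2.3.3, scipy 1.17.1 and pysam 0.24.0 were used. Rows held a median of 43 reads for Dll1+ and 61 for Dll1- cells. Reads carried no molecular identifiers, so intervals cover counting error only.

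Members, lists and tests were chosen with earlier results of these data known. Named genes were the C-type genes, those with a region in a single list, the 4 strongest per cluster and those with a percentile difference over 20 points, and the fixed lists. Genes at the ends of gaps, the genes at an extreme and those with a CTCF match were named after their values were seen. Alternatives covered the assignment, thresholds, percentile, promoter and motif windows. The erythroid markers are not reported here.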

Additional observations from a re-analysis of the deposited data

How the results depend on the processing

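The deposited lists pool the samples of a group, so leaving out a replicate could not be run. No paired analysis was possible because values of single samples are not in these lists, although the labels give 3 tumors a sample in each group. Keeping only rows above the median fold of their own list gave 0 regions called only in Dll1+ cells and 2 called only in Dll1- cells (region 9 and the otherwise shared region 8), with 4 start sites covered in Dll1+ and 5 in Dll1- cells. Asking a region of a single list for such a row left 0 for Dll1+ cells and 1 for Dll1- cells. A CTCF window in the 1000 bp after the start site, chosen after seeing the data, gave 10.5% of members against 0.0% in the promoter window. A promoter of 2500 bp each side raised the promoter share from 29.4 to 52.9%. The number of member regions ran from 16 to 18 over the assignment rules, the share in both lists from 70.6 to 81.8%, and the median percentile difference from -6.66 to -4.22 points. Centering the read ratio on the genome-wide backgrounds, also chosen after seeing the data, gave a median of 0.23 in place of -0.01. Wilson intervals for 17 regions are wide, and regions too weak to be called have no value in these lists.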
